A study of Rattus norvegicus with 8 samples.

Results

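The genes of the Slc1, Slc3, Slc6, Slc7, Slc38 and Slc43 families, most of which carry amino acids across cell membranes, were examined in whole rat lung after injurious ventilation. Members were chosen by symbol, as every gene of these families and of the Slc36 family that had a single gene symbol in the platform annotation, with Slc7a11 excluded. This gave 31 genes of 11217 with a single symbol, and each was represented by its probe set of highest mean over the 8 arrays. Of the 31, 30 are carriers or carrier subunits: 8 of the Slc7 family, 8 of Slc6, 7 of Slc38, 4 of Slc1, 2 of Slc43 and 1 of Slc3. The other is Slc7a6os, which was matched by its name and is the neighbour of Slc7a6 on chromosome 19 in the RefSeq GRCr8 gene table, and it is given apart. No Slc36 gene was among the genes analysed here. Of the 30 carriers, 25 reached log2 5 on at least 2 arrays and were tested, and 5 did not: Slc7a4, Slc7a13, Slc6a7, Slc38a7 and Slc38a9.

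Cells take up amino acids for protein synthesis through carriers of overlapping substrate range, and many of these carriers are exchangers that release 1 amino acid for each one they bring in. Sodium-driven carriers such as Slc38a2 and Slc1a5 load the cell with glutamine and other small neutral amino acids, which the Slc7 exchangers then trade for leucine and other essential ones. Several Slc7 members reach the membrane only when bound to the heavy chain Slc3a2, also called CD98. When amino acids run short, the transcription factor ATF4 is known to switch on a set of these carriers together with the aminoacyl-tRNA synthetases. The Slc6 family also holds carriers for neurotransmitters and osmolytes, among them the serotonin carrier Slc6a4, which lung endothelium uses to clear serotonin from the blood.

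The arrays held RNA from the dorsal-caudal lung of male Sprague-Dawley rats: 2 animals that were not ventilated, 3 ventilated prone and 3 ventilated supine. Both ventilated groups received a tidal volume of 18 mL/kg at 40 breaths/min with an end-expiratory pressure of 0 cmH2O for up to 3 hours. The titles of the supine samples carry a different tidal volume abbreviation (SVt) from those of the prone samples (HVt), but the labelled condition is the same high tidal volume in each. Both ventilated groups were compared with the same 2 control animals and the 2 comparisons are therefore not independent. Values are GCRMA log2 intensities from single-colour arrays and have no count depth, so the number of arrays limits the precision.

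The tissue label was borne out by lung markers, since in controls the group mean was 15.46 for the surfactant gene Sftpc, 15.69 for the club cell gene Scgb1a1 and 14.49 for the alveolar type 1 gene Ager. Some arrays stood apart in ways that touch the results below. The gap between the 3′ and 5′ beta-actin probes, a sign of RNA quality, was log2 9.10 for supine 3 and 3.16 to 4.64 for the rest. Prone 1 and supine 1 had the highest neutrophil markers, with a summed level of 8 genes of log2 17.05 and 16.87 against 13.71 and 13.81 in controls and 15.03 to 15.57 on the other ventilated arrays. Prone 2 and supine 3 had the highest cardiac muscle markers, at log2 11.54 and 10.30 for the summed level of 6 genes against 5.69 to 7.24 elsewhere.

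Against the non-ventilated lung, 0 of the 25 tested carriers passed a Benjamini-Hochberg adjusted p of 0.05 over all 16896 probe sets in limma, in either position. The background was 9 probe sets, or 0.0533%, for prone and the same 0.0533% for supine. At an unadjusted p under 0.05, 7 carriers differed in each position, 4 higher and 3 lower in prone lungs and 5 higher and 2 lower in supine lungs. Among all tested probe sets that threshold was passed by 17.7% in prone lungs, with 7.67% of all probe sets higher, and by 15.2% in supine lungs, with 7.18% of all probe sets higher and 8.05% lower. The prone count was 4 without prone 2, and without either control both counts were 2. With the replicate number as a block the counts were 6 in prone and 9 in supine lungs. In prone lungs Slc7a1 and Slc38a10 then left the count and Slc1a5 entered it, and in supine lungs Slc38a10 left it and Slc7a10, Slc38a5 and Slc38a6 entered it. The shares of all probe sets given here are those of the main fit. They were not computed for these alternatives, so the changed counts have no background beside them. Because no carrier passed the adjusted test, differences are given below as values. The median difference over the 25 tested carriers was -0.01 in prone and 0.52 in supine lungs, beside -0.12 and -0.07 over all tested probe sets. Carriers thus stood both above and below the control level, with 12 of 25 higher in prone and 16 of 25 in supine lungs. Slc6a17, which passed the filter only through ventilated arrays, is 1 of those higher in each position.

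**Figure D1:**
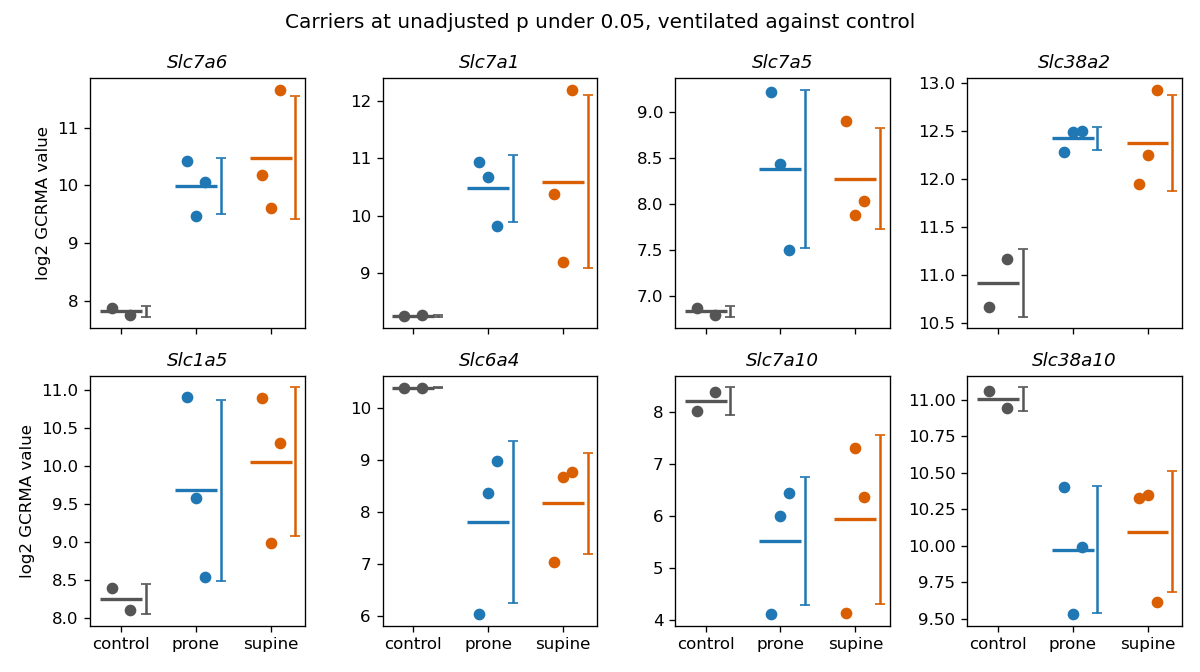
Log2 level of 8 carriers on each of the 8 arrays, with 1 point per animal, a line for the group mean and a bar of 1 SD (2 control, 3 prone and 3 supine animals). Slc7a6, Slc7a1, Slc7a5, Slc38a2 and Slc1a5 stood above both controls on every ventilated array, and Slc6a4, Slc7a10 and Slc38a10 below both.

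The Slc7 carriers that lead the higher side were Slc7a6, Slc7a1 and Slc7a5. Slc7a6 encodes y+LAT2, a CD98-bound exchanger that releases arginine in return for neutral amino acids and sodium. Its level was 7.87 and 7.75 in controls, 10.43, 9.47 and 10.07 in prone lungs and 10.19, 9.61 and 11.66 in supine lungs. All 6 ventilated animals lay above both controls, with supine 3 the highest. The difference was 2.18 ± 0.60 (SE) in prone lungs, 4.52-fold, and 2.67 ± 0.60 in supine lungs, 6.37-fold, with adjusted p of 0.145 and 0.188 in limma. Without supine 3 the supine difference was 2.08.

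Slc7a1 encodes CAT-1, the main uptake carrier for arginine and lysine. Its level was 8.25 and 8.27 in controls, 10.93, 10.68 and 9.82 in prone lungs and 10.38, 9.20 and 12.19 in supine lungs. Every ventilated value was above both controls, and the supine animals spread widely, with a mean of 10.59 ± 1.51 (SD, n = 3). The difference was 2.22 ± 0.80 in prone lungs (limma adjusted p = 0.218) and 2.33 ± 0.80 in supine lungs (adjusted p = 0.275). The supine difference was 1.53 without supine 3 and 3.02 without supine 2. A second probe set for Slc7a1 read 5.65 and 6.14 in controls, 8.23, 8.66 and 7.32 in prone and 7.12, 7.10 and 9.83 in supine lungs. It gave differences of 2.17 and 2.12, with the same array highest.

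Slc7a5 encodes LAT1, the CD98-bound carrier of leucine and other large neutral amino acids. It stood at 6.87 and 6.79 in controls, at 9.22, 8.44 and 7.50 in prone lungs and at 8.91, 7.88 and 8.04 in supine lungs. The groups did not overlap, and the number 1 animal was highest in each position. The difference was 1.56 ± 0.54 in prone lungs (2.94-fold, adjusted p = 0.207 in limma) and 1.45 ± 0.54 in supine lungs (2.73-fold, adjusted p = 0.295).

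The partner chain Slc3a2 was already high in controls, at 12.17 and 12.13. It read 12.45, 12.66 and 12.98 in prone lungs, all above controls, and 12.36, 12.03 and 12.77 in supine lungs, where 1 animal lay below both controls. The differences were 0.55 ± 0.33 and 0.24 ± 0.33 (limma adjusted p of 0.427 and 0.733), and the supine one was 0.04 without supine 3. The other CD98-bound exchangers followed no common course. Slc7a7, the y+LAT1 exchanger of arginine and neutral amino acids, differed by -0.01 ± 0.84 in prone and 0.79 ± 0.84 in supine lungs, with values from 7.14 on prone 2 up to 10.004 on supine 1 and the highest value on the number 1 animal of each position. Slc7a8, the LAT2 carrier of neutral amino acids, differed by 0.36 ± 0.37 and 0.03 ± 0.37.

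Slc7a10 was the exception on the low side of the family. It encodes Asc-1, a CD98-bound exchanger of small neutral amino acids that also carries D-serine and is known as a surface marker of white fat cells. Its level was 8.004 and 8.38 in controls, 4.12, 5.99 and 6.43 in prone lungs and 4.14, 7.30 and 6.36 in supine lungs. All ventilated animals lay below both controls, and prone 1 and supine 1 lay under the level of log2 5 used as a filter. The difference was -2.68 ± 0.99 in prone lungs (6.41-fold lower, limma adjusted p = 0.226) and -2.26 ± 0.99 in supine lungs (4.80-fold lower, adjusted p = 0.337). The prone difference was -1.98 without prone 1, and the supine one was -1.37 without supine 1 and -2.94 without supine 2. The family's remaining members, Slc7a4 and Slc7a13, stayed between 2.12 and 4.56 on every array.

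Slc7a6os, whose product is not a carrier, stood at 8.18 and 8.25 in controls, 9.18, 8.95 and 9.27 in prone lungs and 9.42, 8.30 and 9.85 in supine lungs. Each ventilated value lay above both controls, as those of its neighbour Slc7a6 did. The differences were 0.92 ± 0.46 and 0.98 ± 0.46 (limma adjusted p of 0.347 and 0.356).

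Of the 4 carriers that were higher at an unadjusted p under 0.05 in both positions, promoter sequences are shown for the 3 whose window lies at the outermost gene start of the RefSeq table, Slc7a1, Slc7a5 and Slc38a2. They are RefSeq windows on GRCr8 from 250 bases before to 50 bases after a transcript start, 5′ to 3′ on the gene's strand. The window given for Slc7a6 lies 11047 bases inside the gene from its outermost start and is not shown. Capitals mark a match to TGATGNAA, the core of the C/EBP-ATF response element that ATF4 binds, or to CACGTG, the E-box.
Slc7a1, chr12:11664238-11664537, plus strand: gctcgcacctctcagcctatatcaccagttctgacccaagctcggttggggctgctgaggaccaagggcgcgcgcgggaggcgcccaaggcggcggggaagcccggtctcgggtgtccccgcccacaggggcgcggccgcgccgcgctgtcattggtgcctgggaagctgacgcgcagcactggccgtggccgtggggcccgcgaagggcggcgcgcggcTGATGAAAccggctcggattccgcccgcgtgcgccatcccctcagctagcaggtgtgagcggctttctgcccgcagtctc
Slc7a5, chr19:66872363-66872662, minus strand: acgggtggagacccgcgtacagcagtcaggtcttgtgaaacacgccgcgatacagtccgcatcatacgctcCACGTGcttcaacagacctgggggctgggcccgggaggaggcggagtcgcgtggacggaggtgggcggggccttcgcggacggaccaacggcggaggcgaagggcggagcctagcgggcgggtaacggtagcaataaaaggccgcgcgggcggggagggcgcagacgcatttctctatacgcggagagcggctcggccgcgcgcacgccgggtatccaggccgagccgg
Slc38a2, chr7:129742570-129742869, minus strand: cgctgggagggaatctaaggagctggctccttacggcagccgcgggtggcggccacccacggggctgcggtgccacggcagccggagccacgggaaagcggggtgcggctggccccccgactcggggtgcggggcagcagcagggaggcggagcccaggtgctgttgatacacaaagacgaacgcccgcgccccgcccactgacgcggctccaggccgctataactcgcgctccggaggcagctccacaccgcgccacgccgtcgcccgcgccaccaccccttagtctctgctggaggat
Of the 31 members, 25 had a promoter entry, and 12 of their 28 entries lie at the outermost gene start, so a match or its absence holds only for the window given. On either strand, TGATGNAA was found in the windows of 3 of them, Slc7a1, Slc38a1 and Slc1a4, beside 3.98% of 33469 windows of the same length. CACGTG, which reads the same on both strands, was found in 4, Slc7a5, Slc43a1, Slc1a4 and Slc38a7, beside 6.42% of all windows. No match to one overlapped a match to the other. In Slc7a1 the TGATGAAA match begins at position -30 from the transcript start. In Slc1a4 a TGATGNAA match lies at position -235 on the strand opposite to the gene, and in Slc38a1 at position -142 on the gene's own strand. The transcript starts of these 2 windows lie 110 and 326 bases inside the outermost gene start.
Slc1a4, around position -235: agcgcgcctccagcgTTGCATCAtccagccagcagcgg
Slc38a1, around position -142: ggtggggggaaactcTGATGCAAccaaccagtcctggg
The window of Slc38a2 held neither string of letters, and those of Slc1a4 and Slc7a5 shared the E-box. A match describes these letters only, and carriers with a match stood on both sides of the control level, with Slc7a1 above and Slc38a1 below it in prone lungs.

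Among the carriers of glutamine and other neutral amino acids, Slc38a2 differed most steadily from controls. It encodes SNAT2, the sodium-coupled carrier through which cells adapt to amino acid shortage and to hypertonic shrinkage. Its level was 10.67 and 11.17 in controls, 12.29, 12.49 and 12.50 in prone lungs and 11.95, 12.26 and 12.93 in supine lungs. Every ventilated animal lay above both controls, and the prone animals were close together, with a mean of 12.43 ± 0.12 (SD, n = 3). The difference was 1.51 ± 0.36 in prone lungs (2.85-fold) and 1.46 ± 0.36 in supine lungs (2.76-fold). These carried the smallest unadjusted p of any carrier in prone lungs, 0.00369, with an adjusted p of 0.123 in limma, and an adjusted p of 0.211 in supine lungs.

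Slc1a5 encodes ASCT2, a sodium-dependent exchanger of glutamine, serine and alanine. It read 8.39 and 8.11 in controls, 10.92, 9.59 and 8.54 in prone lungs and 10.90, 8.99 and 10.30 in supine lungs. All ventilated animals were above both controls, with prone 3 only slightly so and the number 1 animal highest in each position. The difference was 1.43 ± 0.77 in prone lungs (limma adjusted p = 0.379) and 1.81 ± 0.77 in supine lungs (adjusted p = 0.323), and the prone one was 0.81 without prone 1.

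Its relative Slc1a4, or ASCT1, carries alanine, serine and cysteine. It stood at 7.50 and 7.79 in controls, 8.06, 9.44 and 8.63 in prone lungs and 7.11, 8.02 and 9.43 in supine lungs. Prone animals were all above controls, whereas 1 supine animal was below and the highest values came from the arrays with cardiac markers, prone 2 and supine 3. The differences were 1.06 ± 0.69 and 0.54 ± 0.69. Without supine 3 the supine difference was -0.08, without supine 1 it was 1.08, and without prone 2 the prone one was 0.70. The part of heart tissue in these values was not tested.

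The other Slc38 carriers did not share the course of Slc38a2. Slc38a10, a broadly expressed member of the family that carries glutamine, glutamate and aspartate in mouse, was 11.06 and 10.94 in controls, 10.40, 9.53 and 9.99 in prone lungs and 10.33, 10.35 and 9.62 in supine lungs. All 6 ventilated animals lay below both controls. The difference was -1.03 ± 0.38 in prone and -0.91 ± 0.38 in supine lungs (limma adjusted p of 0.221 and 0.317). Slc38a1, the neutral amino acid carrier SNAT1, was 7.47 in both controls, 6.78, 7.04 and 5.97 in prone lungs and 6.75, 7.44 and 7.85 in supine lungs. Prone animals were all below controls, with a difference of -0.88 ± 0.44 (adjusted p = 0.355 in limma), and supine animals lay on both sides. Slc38a5, a glutamine and glycine carrier of the same family, differed by -1.22 ± 0.94 and -1.71 ± 0.94, with every ventilated animal below both controls and the lowest values, 6.01 and 5.54, on prone 1 and supine 1.

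Slc38a6 ran from 3.95 to 7.28 and overlapped the controls in both positions. The lysosomal carriers Slc38a9, which reports arginine in the lysosome to the growth kinase complex mTORC1, and Slc38a7, which exports glutamine, were too low to test. Slc38a9 read 5.44 and 4.77 in controls and 3.32 to 4.92 on ventilated arrays, and Slc38a7 read 1.95 to 4.41 over all 8 arrays.

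**Figure D2:**
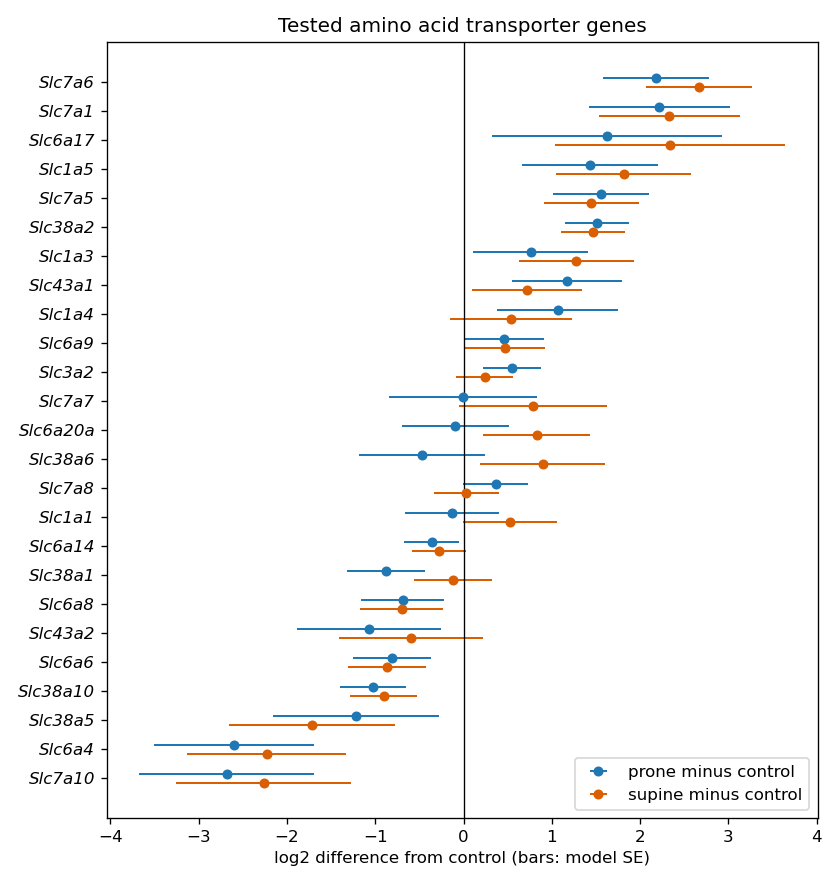
Log2 difference from the non-ventilated group for each of the 25 tested carriers, prone and supine beside each other, with bars of 1 standard error from limma. Slc7a6, Slc7a1, Slc7a5, Slc1a5 and Slc38a2 lie on the higher side and Slc6a4, Slc7a10 and Slc38a10 on the lower side in both positions.

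The glutamate carriers of the Slc1 family were each read by a pair of probe sets, which had the same sign for Slc1a3 and differed for Slc1a1 in supine lungs. Slc1a3, known as GLAST, was 9.31 and 9.58 in controls, 11.31, 9.25 and 10.06 in prone lungs and 11.02, 9.87 and 11.27 in supine lungs. Supine animals were all above controls, by 1.28 ± 0.65 in the mean (limma adjusted p = 0.386), and prone animals overlapped them, with a difference of 0.76 ± 0.65. Its second probe set gave 0.85 in prone and 0.87 in supine lungs, with overlap in both. That probe set read 3.79 and 4.55 in controls. It passed the filter only through prone 1, at 6.31, and supine 1, at 6.03. Its place among the tested probe sets thus came from the ventilated side, and its sign cannot be used as support for the first. Slc1a1, known as EAAC1, a carrier of glutamate and cysteine, differed by -0.13 ± 0.53 in prone and 0.52 ± 0.53 in supine lungs, and its second probe set by -1.06 and -0.89.

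The Slc43 family holds sodium-independent carriers of large neutral amino acids. Slc43a1, or LAT3, stood at 7.06 and 7.77 in controls, 7.67, 8.41 and 9.69 in prone lungs and 7.61, 8.07 and 8.71 in supine lungs. Both ventilated groups overlapped the controls, with differences of 1.18 ± 0.62 and 0.72 ± 0.62 (limma adjusted p in prone lungs of 0.374). Slc43a2, or LAT4, differed by -1.07 ± 0.82 and -0.59 ± 0.82, again with overlap. Its second probe set had the lower mean over the 8 arrays but was the higher in controls, at 9.07 and 8.65 against 8.56 and 8.05. This second probe set read 6.89, 5.53 and 6.69 in prone lungs and 5.13, 7.41 and 5.22 in supine lungs. On that probe set no ventilated animal reached the controls, with differences of -2.49 and -2.94 (adjusted p of 0.213 in limma for supine), so the size for Slc43a2 depends on the probe set.

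In the Slc6 family the serotonin carrier Slc6a4 was on the lower side. Its level was 10.39 and 10.40 in controls, 6.03, 8.38 and 8.99 in prone lungs and 7.03, 8.69 and 8.78 in supine lungs. Every ventilated animal lay below both controls, and the number 1 animals were lowest in both positions. The difference was -2.60 ± 0.90 in prone lungs (6.05-fold lower, limma adjusted p = 0.207) and -2.23 ± 0.90 in supine lungs (4.70-fold lower, adjusted p = 0.310). The prone difference was -1.71 without prone 1 and -3.19 without prone 3. When both number 1 ventilated animals were left out, an alternative added after seeing the data, the spread was smaller, and Slc6a4 was the 1 carrier past the adjusted threshold, at -1.71 with an adjusted p of 0.0484 in prone lungs. Under that alternative 4.31% of all probe sets passed in prone lungs, so 1 of 25 carriers was near the background.

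The 9 endothelial markers were all lower in prone lungs, with a median difference of -0.62, and the median was -0.65 in supine lungs. Their summed level was 15.79 and 15.84 in controls, 14.86, 15.53 and 15.69 in prone lungs and 15.13, 15.61 and 15.02 in supine lungs. The number 1 animals, lowest for Slc6a4, were low for the endothelial sum as well, and prone 1 was lowest for both. Supine 3, lowest of the supine animals for the endothelial sum, was highest of them for Slc6a4. In whole tissue, fewer cells of a type and less RNA per cell cannot be told apart, and the part of endothelial cell number in the Slc6a4 values was not tested.

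The carriers of taurine and creatine were also on the lower side. Slc6a6, the taurine carrier, was 12.29 and 12.64 in controls, 11.65, 11.39 and 11.90 in prone lungs and 11.10, 12.42 and 11.28 in supine lungs. Prone animals were all below controls and 1 supine animal was not, with differences of -0.81 ± 0.44 and -0.86 ± 0.44 (limma adjusted p of 0.384 and 0.386). Its second probe set was lower by more, at -1.66 and -2.95. Slc6a8, the creatine carrier, differed by -0.69 ± 0.47 and -0.70 ± 0.47 with no overlap, whereas its second probe set gave 0.04 in both positions.

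The remaining Slc6 carriers stayed near controls or gave few readings above the filter. Slc6a9, the glycine carrier GLYT1, differed by 0.46 ± 0.45 and 0.47 ± 0.45. Slc6a20a, a proline carrier, differed by -0.09 in prone lungs and stood at 8.86, 8.87 and 10.64 in supine lungs against 8.46 and 8.79 in controls, a difference of 0.83 ± 0.61. Slc6a14, a carrier of neutral and cationic amino acids found in airway epithelium, differed by -0.36 ± 0.31 and -0.28 ± 0.31. Slc6a17 was 2.92 and 2.91 in controls and passed the filter only through 3 ventilated arrays, prone 2 at 6.63, supine 2 at 5.83 and supine 3 at 6.88, so its place among tested carriers came from the ventilated side. The proline carrier Slc6a7 was not above 3.75 on any array.

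Groups that did not overlap were frequent over the whole array, so the carriers' share is given beside it. In prone lungs, 9 carriers lay wholly above and 8 wholly below both controls, beside 20.9% of all tested probe sets above, 27.7% below and 48.6% in either direction. In supine lungs the counts were 8 and 5, beside 20.0%, 21.8% and 41.8%. With both positions pooled, 6 of 25 carriers lay above both controls on all 6 ventilated arrays and 5 below, beside 12.9%, 16.7% and 29.6%. Leaving out Slc6a17, which could pass the filter only by being high in ventilated lungs, the counts above controls were 8 in prone, 7 in supine and 5 in pooled lungs, of 24. The pooled contrast passed an unadjusted p under 0.05 for 8 carriers, 5 higher and 3 lower, beside 8.53%, 10.6% and, in either direction, 19.2% of probe sets, and 0 after adjustment, beside 0.142%. Its largest differences were 2.42 ± 0.54 for Slc7a6, 2.28 ± 0.71 for Slc7a1, -2.47 ± 0.89 for Slc7a10 and -2.41 ± 0.81 for Slc6a4. The lowest adjusted p, 0.105 in limma, was that of Slc38a2, at 1.49 ± 0.33.

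**Figure D3:**
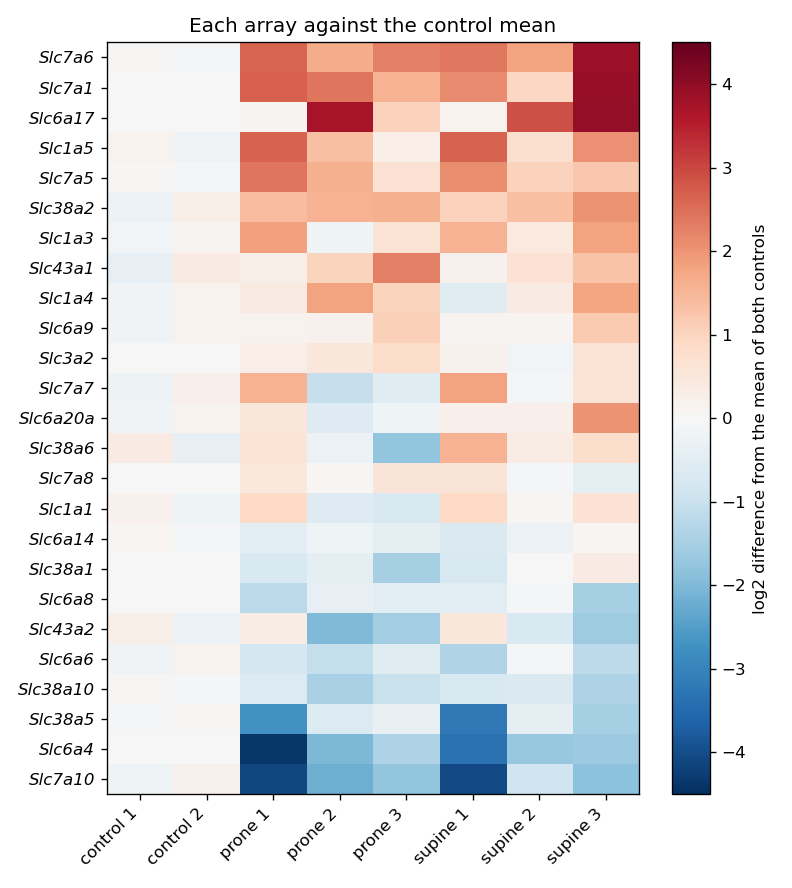
Log2 difference of each tested carrier from its control mean on each of the 8 arrays, shown by colour, with carriers ordered by their mean difference. Supine 2 is the palest ventilated column, with a median absolute difference of 0.42, and supine 3 the strongest, with 1.49.

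The ventilated animals differed among themselves along lines that crossed the positions. Slc1a5, Slc7a5, Slc7a7, Slc1a1, Slc38a6 and Slc43a2 were highest on prone 1 within the prone group and on supine 1 within the supine group. Slc6a4, Slc7a10, Slc38a5, Slc38a2, Slc1a4, Slc43a1, Slc6a14 and Slc6a17 were lowest on the same arrays. Among these lowest ones, Slc38a2, Slc1a4, Slc43a1 and Slc6a17 stood above controls in the mean of each position. The second probe sets of Slc43a2 and Slc1a1 differed in supine lungs. Supine 1 was the lowest supine array for Slc43a2, at 5.13, and supine 3 the highest for Slc1a1, at 6.48. Over all tested probe sets, the deviations of prone 1 and supine 1 from their group means correlated at 0.72. The share of all probe sets highest or lowest on both arrays was not computed. Prone 1 and supine 1 are the 2 arrays of highest neutrophil markers, and the part of these cells in the carrier values was not tested. Slc7a6, Slc7a1, Slc38a2, Slc6a20a, Slc38a1, Slc6a9 and Slc6a17 had their highest value of all 8 arrays on supine 3, the array with the largest gap between 3′ and 5′ probes. The share of all probe sets highest on supine 3 was not computed. The median absolute difference of the carriers from the control mean was 0.81, 1.05 and 0.99 on the prone arrays and 0.89, 0.42 and 1.49 on the supine arrays. Over all tested probe sets the same measure was 0.60, 0.62 and 0.61 on the prone arrays and 0.67, 0.40 and 0.80 on the supine arrays, so supine 2 was nearest to controls and supine 3 farthest on both measures.

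The direct comparison of the ventilated groups asked whether carriers differ between supine and prone lungs. In limma 0 of 25 carriers passed an unadjusted p under 0.05, beside 4.09% of all probe sets, 2.60% higher and 1.49% lower, and 0 probe sets of any kind passed after adjustment, a background of 0%. Supine and prone values overlapped for every tested carrier, beside 5.89% of probe sets that did not overlap, 3.78% higher and 2.11% lower. The 2 lowest unadjusted p in limma were 0.0651 for Slc38a6, at 1.37 ± 0.63 higher in supine lungs, and 0.0962 for Slc38a1, at 0.75 ± 0.40 higher. Without prone 3 the Slc38a6 difference was 0.72. The animals of Slc38a6 read 6.34, 5.47 and 3.95 in prone lungs and 7.28, 6.06 and 6.53 in supine lungs. With the replicate number as a block, 1 carrier, Slc38a6, passed an unadjusted p under 0.05, with an adjusted p of 0.670 in limma. The 95% intervals were too wide to call the positions alike. They ran from -0.81 to 0.71 for Slc38a2, from -0.76 to 1.75 for Slc7a6, from -1.55 to 1.78 for Slc7a1 and from -1.52 to 2.25 for Slc6a4.

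**Figure D4:**
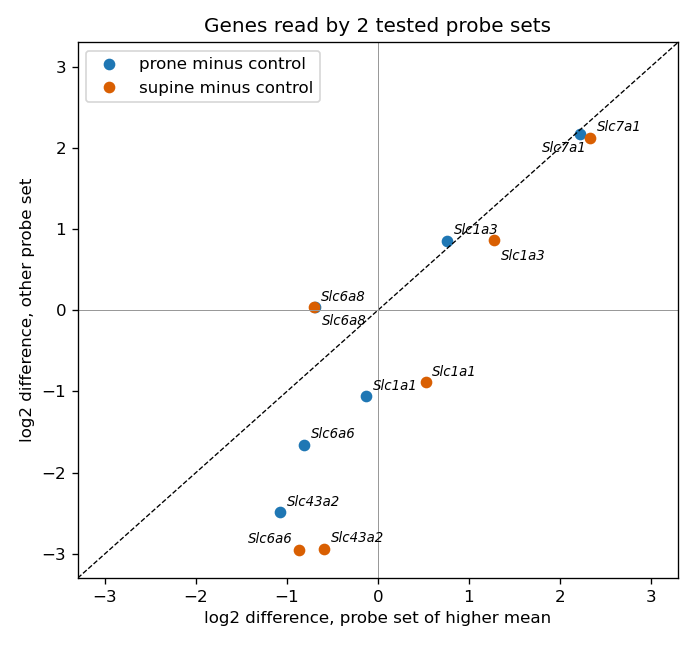
Log2 difference from controls given by the probe set of higher mean (horizontal axis) and the other probe set (vertical axis) of the 6 carriers that had both tested, for prone and supine lungs. The dashed line marks equal values, Slc7a1 lies on or near it, and Slc6a8 in both positions and Slc1a1 in supine lungs have opposite signs on their probe sets. The other probe set of Slc1a3 passed the filter only through ventilated arrays.

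The lists of genes that act beside the carriers differed in direction. Over all tested probe sets the median difference was -0.12 in prone and -0.07 in supine lungs. More probe sets were thus lower than higher in each position. Of 19 tested cytosolic aminoacyl-tRNA synthetases, which load amino acids onto transfer RNA, 18 were higher in prone and 18 in supine lungs, with medians of 0.81 and 0.62. Without prone 1 the prone median was 0.47 with 14 of 19 higher, and without supine 2 the supine median was 1.03. Their median level against controls was highest on prone 1 (1.27) and supine 1 (1.07), the arrays of highest neutrophil markers, and supine 3 (1.33), and the part of those cells or of RNA quality was not tested. At an unadjusted p under 0.05, 6 were higher in prone lungs, beside 7.67% of probe sets, and 8 in supine lungs, beside 7.18%, and none passed adjustment. The prone count was 3 without either control. The supine count was 2 without control 2, 3 without control 1, 5 without supine 1 and 3 without supine 3 and prone 2 together. Asparaginyl synthetase, Nars1, was higher by 1.26 ± 0.28 in prone and 1.05 ± 0.28 in supine lungs (limma adjusted p of 0.111 and 0.220). Cysteinyl synthetase, Cars1, was higher by 2.34 ± 0.57 in prone lungs and isoleucyl synthetase, Iars1, by 1.88 ± 0.47 in supine lungs. Leucyl synthetase, Lars1, was the 1 gene on the lower side in prone lungs, at -0.08 ± 0.38, and glutaminyl synthetase, Qars1, in supine lungs, at -0.25 ± 0.33.

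Of 22 tested genes known as targets or parts of the ATF4 response, other than the carriers above, 20 were higher in prone and 16 in supine lungs, with medians of 0.99 and 0.79, the supine one being 0.51 without supine 3. Slc7a11 is 1 of those higher in each position, and it passed the filter only through ventilated arrays. Of the 24 listed genes on the array, 5 lay below log2 5 on control 1 and 6 on control 2, so others may have passed likewise. The counts and medians given for this list include Slc7a11 and any such genes. An unadjusted p under 0.05 was reached by 10 genes in prone lungs, beside 17.7% of probe sets in either direction, and by 5 in supine lungs, beside 15.2%. None passed adjustment. Both counts moved by more than 1.5 times with 1 array left out, the prone one to 5 without either control and the supine one to 2 without control 1, 1 without control 2, 3 without supine 3 and 11 without supine 2. Ppp1r15a, the phosphatase subunit that restores translation after stress, was higher by 3.996 ± 0.62 in prone lungs (limma adjusted p = 0.0781), and the mitochondrial folate enzyme Mthfd2 by 3.78 ± 0.85 (adjusted p = 0.114). In supine lungs Atf4 itself was higher by 0.94 ± 0.27 and Slc7a11, the cystine carrier, by 3.06 ± 0.78 (limma adjusted p of 0.237 and 0.213). Slc7a11 read 2.62 and 2.55 in controls and reached log2 5 only on prone 1, supine 1 and supine 3, at 5.82, 5.74 and 6.96. Its difference is thus measured from a control level below the filter. Its place among the tested genes, and in both counts at the unadjusted threshold, came from the ventilated side. On the lower side were the lipoprotein receptor Vldlr, at -1.96 ± 0.86 in prone lungs, and the cysteine-forming enzyme Cth, at -0.88 ± 0.39. Between positions Ppp1r15a was lower in supine than in prone lungs, by a log2 difference of -2.32 ± 0.55 with an unadjusted p of 0.00341 and an adjusted p of 0.942 in limma.

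**Figure D5:**
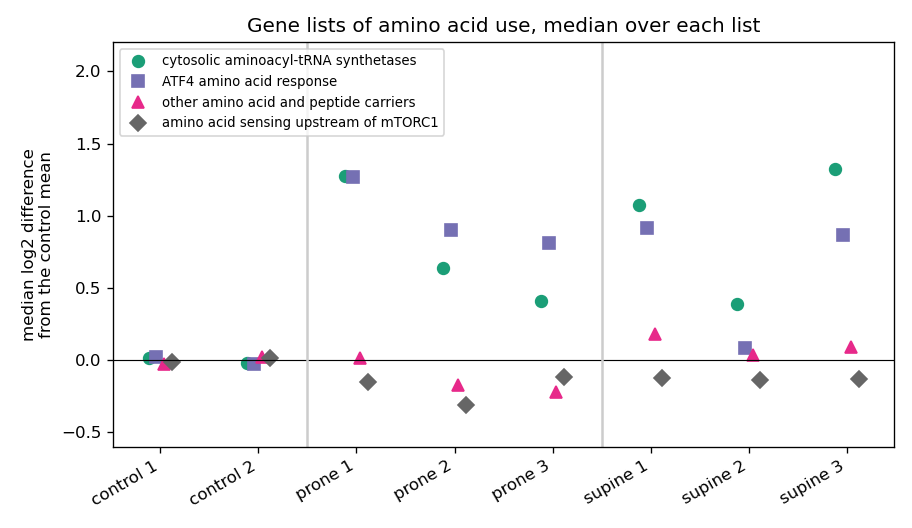
Median log2 difference from the control mean over the genes of 4 lists on the array, for each of the 8 animals. The aminoacyl-tRNA synthetases stand above 0 on all 6 ventilated arrays, from 0.39 on supine 2 to 1.33 on supine 3.

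Other carriers did not stand on 1 side. A list of 14 tested carriers of amino acids and peptides held Slc7a11, also counted in the ATF4 list, and 13 genes outside the families above. Of those 13, 3 were higher in prone and 6 in supine lungs, with medians of -0.38 and -0.0077. Slc15a2, the peptide carrier PEPT2 of alveolar type 2 cells, differed by -1.83 ± 0.53 in prone lungs and -1.69 ± 0.53 in supine lungs (limma adjusted p of 0.159 and 0.254). Of 25 tested genes listed for amino acid sensing upstream of mTORC1, which include subunits of mTORC1 itself, 7 were higher in each position. Their medians were -0.17 and -0.12, beside -0.12 and -0.07 over all tested probe sets. The prone count was 11 after centring the arrays and 9 after quantile normalization. Among the listed genes the GTPase Rragc was higher by 1.05 ± 0.36 and the mTORC1 subunit Rptor lower, at -0.93 ± 0.38, in prone lungs (adjusted p of 0.205 and 0.267 in limma).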

How the data were processed

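Expression of 8 rat lung RNA samples was measured on 1-colour Affymetrix arrays. The deposited values are GCRMA summaries made with Partek 6.5, per the submitters' processing notes, and run from 1.01 to 15.72, which is a log2 scale. GCRMA models background and normalizes between arrays, and no detection calls were used to tell low values from background. The sources used here do not give the authors' filters, centring or tests. Of 20242 probe sets, 28 controls were set aside, and 16896 that reached log2 5 on 2 or more arrays were tested. Groups came from the titles. Symbols came from the platform annotation; all 31 members matched the RefSeq GRCr8 table by gene ID, and 0 symbols changed.

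Differences were computed with limma 3.58.1 in R 4.3.3 (lmFit with 1 mean per group over all 8 arrays, eBayes, 5 residual degrees of freedom), two-sided, with Benjamini-Hochberg adjustment over all tested probe sets. The fit was tested on simulated data. The members and lists were chosen with earlier results of these data known. Genes were named by a rule: in each comparison the 8 members of smallest p, the CD98-linked and amino-acid-response carriers, the member of highest mean in each family, and up to 2 genes of smallest p in each direction from each list. The members outside this rule were named for completeness (Slc38a5, Slc38a7, Slc43a2, Slc6a7, Slc6a8, Slc6a14, Slc6a17, Slc7a4 and Slc7a13), after their values were seen. Same-numbered arrays of different groups deviated together, with correlations from 0.11 to 0.72 for all 7 pairs, so the replicate number was also fitted as a block. This pairing comes from the data, since the labels state no shared day or litter. Prone 3 correlated more with supine 2, at 0.40, and control 2 more with prone 3, at 0.21, than with prone 2, at 0.11. With 2 controls, their deviations from the group mean are mirror images, so the pairs that hold a control are not independent. With the block, the count of all probe sets past adjustment was 0 in every comparison, against 9, 9 and 24 for prone, supine and all ventilated lungs. Titles call the samples biological replicates. The alternatives covered the filter, scaling, fit, probe set and each array left out.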

Additional observations from a re-analysis of the deposited data

How the results depend on the processing

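Carrier results were recomputed under up to 18 alternatives, of which 8 left out 1 array, and counts over all probe sets or lists under 17. Of 66 carrier differences, 51 kept their direction under every one. The number of carriers past the adjusted threshold was 0 under each, except 1 in prone and 1 in all ventilated lungs when both number 1 ventilated arrays were left out, the gene being Slc6a4. Centring the arrays moved the median over all probe sets in prone lungs from -0.12 to 0.03, and the number of carriers higher there from 12 to 15, or 14 after quantile normalization. With 2 controls, leaving out either one lowered the carriers at an unadjusted p under 0.05 to 2 in each comparison with controls. With 1 array left out at a time, these counts ran from 2 to 8 in prone, 2 to 10 in supine, 2 to 9 in all ventilated and 0 to 3 in supine against prone lungs. Counts of all probe sets past adjustment ran likewise from 0 to 115, 0 to 153, 0 to 381 and 0 to 3.

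For all probe sets past adjustment in prone, supine and all ventilated lungs, the counts were 35, 18 and 118 without a filter, 0, 0 and 5 with a filter at log2 7, 0, 0 and 11 with an intensity trend, and 0, 0 and 0 with the replicate block. With only the groups compared they were 119, 0 and 24. Left out together, the number 1 ventilated arrays gave 728, 0 and 413, and prone 2 with supine 3 gave 0, 0 and 0; both were chosen after seeing the data. The 2 sets of arrays left out gave 9, 8 and 11, and 6, 3 and 6, carriers at an unadjusted p under 0.05. In supine against prone lungs, the number 1 arrays left out gave 4 such carriers and the replicate block 1, Slc38a6, against 0. The share of all probe sets at the unadjusted threshold was computed only for the main fit. Counts of carriers or list genes at that threshold under the alternatives thus have no background beside them, and cannot be read as particular to the carriers. The block changed no carrier's adjusted call. At the unadjusted threshold it gave 9 carriers in all ventilated lungs against 8, with Slc38a5 entering the count. Its changes in the other comparisons are given with the counts above.

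Directions turned for small differences, and the cause was not tested. In prone lungs Slc7a7, at -0.01, was 0.14 after centring, 0.10 after quantile normalization, 0.17 with the block and 0.52 without prone 2 and supine 3, and ran from -0.80 to 0.52 with 1 array left out. In all ventilated lungs Slc7a7 was -0.26 without the number 1 arrays and ran from -0.0063 to 0.65. In supine lungs Slc7a8 was -0.25 without the number 1 arrays and ran from -0.25 to 0.25, and Slc1a4 was -0.0817 without prone 2 and supine 3 and ran from -0.0817 to 1.08. In supine against prone lungs, leaving out prone 2 and supine 3 gave -0.35 for Slc7a6, 0.0347 for Slc7a5, -0.48 for Slc6a9, -0.59 for Slc7a1 and -0.24 for Slc1a3. Slc6a9 was -0.0611 after centring and -0.0629 after quantile normalization, Slc38a2 was 0.0051 after quantile normalization and 0.10 without the number 1 arrays, and Slc6a6 was 0.20 without them. With 1 array left out, that comparison ran from -0.0927 to 0.93 for Slc7a6, -0.55 to 0.31 for Slc7a5, -0.28 to 1.31 for Slc7a10, -1.15 to 0.0118 for Slc1a4, -0.19 to 1.00 for Slc1a5, -0.34 to 0.31 for Slc6a9, -0.69 to 0.81 for Slc7a1, -0.32 to 0.17 for Slc38a2, -0.92 to 0.0900 for Slc43a1 and -0.46 to 0.20 for Slc6a6.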

Other observations

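Other genes of amino acid and osmolyte handling gave values on both sides of the control level. Of 14 tested genes of branched-chain, glutamine and glutamate metabolism, 4 were higher in prone and 5 in supine lungs. Their medians were -0.25 and -0.31, beside -0.12 and -0.07 over all tested probe sets. Glul, which makes glutamine from glutamate, was higher by 0.95 ± 0.34 in prone and 1.08 ± 0.34 in supine lungs, whereas Gls2, which splits glutamine, differed by -0.95 ± 0.30 and -0.93 ± 0.30 (limma adjusted p from 0.181 to 0.261 for these 4 values). Gpt2, the mitochondrial alanine aminotransferase, which the ATF4 list also held, was higher by 1.83 ± 0.44 in prone and 0.92 ± 0.44 in supine lungs.

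Among 7 tested genes of the osmotic response, to which the taurine carrier Slc6a6 is known to belong, the medians were -0.68 in prone and -0.41 in supine lungs, with members far apart. Slc5a3, the myo-inositol carrier, was higher by 4.97 ± 1.04 in prone and 3.07 ± 1.04 in supine lungs (limma adjusted p of 0.108 and 0.273). The water channel Aqp5 of alveolar type 1 cells differed by -1.34 ± 0.52 and -1.70 ± 0.52 (adjusted p of 0.238 and 0.248).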
